A study of Mus musculus with 14 samples.

Results

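MyoD peaks marked 451 promoter regions in activated muscle stem cells, out of 1985 consensus MyoD regions in those cells. The 451 regions were chosen from the 3 MyoD peak lists of activated cells. Peaks that shared at least 1 bp were merged, 2 or more of the 3 libraries had to contribute a peak, and the authors' annotation of the highest-scoring peak had to place it within 3 kb of a transcription start. Presence of MyoD peaks in these 3 libraries is therefore the basis of the choice and not a result. A peak is an interval with more reads from precipitated DNA than its surroundings would give, and the score in the files is the negative log10 of the peak caller's p-value, multiplied by 10. A score of 50 equals a p-value of 1e-05, and the lowest score in the activated MyoD lists was 50.

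The mice carried a mito-Dendra2 allele, a mitochondrial fluorescent protein, under recombination by Pax7-Cre(ERT2), which acts in muscle stem cells (MuSCs), and their genotype was otherwise given as wild-type. All animals received tamoxifen at 75 mg/kg on each of 5 days, and 2 days after the last dose a tibialis anterior (TA) muscle was injured with 50 µL of 1.2% BaCl2. At 2 days post injury, activated stem cells (ASCs) were sorted from the injured TA as CD34-, Dendra2+, DAPI- cells, and quiescent stem cells (QSCs) from the saline-injected opposite TA as CD34+, Dendra2+, DAPI- cells. MyoD or MyoG was precipitated from cells fixed in 1% formaldehyde, with 3 replicates for each cell state and antibody. The age of the mice and whether a replicate pooled several mice were not given in the sources used here. The Dendra2 label follows every descendant of a Pax7-expressing cell, so the sorted cells need not all be at the same step of differentiation.

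MyoD is a basic helix-loop-helix factor that commits cells to the muscle lineage. It pairs with an E protein and binds the E-box, a short site with the form CANNTG, and its preferred forms have GC or CC/GG in the middle. In proliferating and differentiating myoblasts it is known to switch on MyoG, MEF2 factors and the genes of the contractile apparatus, many of them through E-boxes close to the start of transcription.

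Of the 451 regions, 271 lay within 1 kb of a start, 92 between 1 and 2 kb and 88 between 2 and 3 kb, by the authors' annotation. They carried the names of 441 genes. RefSeq listed 414 of the region names, of which 368 were protein-coding, 28 long noncoding RNA and 4 miRNA genes. Promoter regions made up 22.7% of the consensus MyoD regions, beside 35.5% distal intergenic, 35.2% intronic, 4.03% exonic and 2.52% UTR regions. Without ASC MyoD replicate 1, where a peak in both other libraries was required, the count was 293 in place of 451.

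The promoter windows of RefSeq (build GRCm38.p6, the coordinates of the peaks' build mm10) were searched for E-boxes. The windows were set by the starts and not by the peaks, so they do not show which sequence MyoD bound. Each window ran from 250 bases before to 50 bases after a start, and 114 windows of 107 genes lay wholly inside 94 of the promoter regions. The stretches below come from windows wholly inside a region and run 5′ to 3′ on the strand of the gene, from 15 bases before the first upstream E-box to 15 bases after the last, or to the end of the 250 bases. Capitals mark CANNTG. The first set holds the highest-ranked region with such an E-box, Rhobtb1, and the muscle transcription factor genes Mef2c and Myog. Their positions are Rhobtb1 (chr10:69208347-69208490, plus strand), Mef2c (chr13:83503785-83503954, plus strand) and Myog (chr1:134289851-134290003, plus strand).
Rhobtb1: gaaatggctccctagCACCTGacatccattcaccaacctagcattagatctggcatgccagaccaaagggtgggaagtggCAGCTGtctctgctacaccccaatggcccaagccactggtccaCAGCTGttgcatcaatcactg
Mef2c: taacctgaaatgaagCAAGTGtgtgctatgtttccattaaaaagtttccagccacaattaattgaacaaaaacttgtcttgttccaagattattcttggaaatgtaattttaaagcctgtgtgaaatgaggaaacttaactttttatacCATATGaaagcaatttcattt
Myog: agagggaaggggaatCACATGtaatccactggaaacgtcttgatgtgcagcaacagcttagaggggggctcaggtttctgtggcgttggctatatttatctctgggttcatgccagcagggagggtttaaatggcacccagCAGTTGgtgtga

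Rhobtb1, which encodes an atypical GTPase with BTB domains, held 1 CACCTG and 2 CAGCTG sites within the 205 bases before its start. Mef2c, a partner of MyoD in muscle gene activation, held a CAAGTG and a CATATG in this stretch. A CACCTG lay elsewhere in the same region, in the upstream bases of Gm33317 on the minus strand. Myog, the gene of MyoG, held CACATG and CAGTTG, and neither of the preferred forms in this stretch. Mamstr, a coactivator of MEF2 factors, also had its window inside a high-ranked region, and its 250 upstream bases held no CANNTG.

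The second set shows promoters of contractile, acetylcholine receptor and Notch pathway genes, picked after their values were seen because they carry the muscle genes described further on. Positions are Chrna1 (chr2:73580362-73580445, minus strand), Chrnb1 (chr11:69795946-69796071, minus strand), Acta1 (chr8:123894976-123895025, minus strand), Des (chr1:75360057-75360276, plus strand), Tpm2 (chr4:43523761-43523796, minus strand), Ttn (chr2:76982665-76982700, minus strand), Mybpc1 (chr10:88605189-88605254, minus strand), Klhl40 (chr9:121777357-121777606, plus strand) and Hes6 (chr1:91414182-91414273, minus strand).
Chrna1: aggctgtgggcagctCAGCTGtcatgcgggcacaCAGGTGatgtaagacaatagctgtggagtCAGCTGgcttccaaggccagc
Chrnb1: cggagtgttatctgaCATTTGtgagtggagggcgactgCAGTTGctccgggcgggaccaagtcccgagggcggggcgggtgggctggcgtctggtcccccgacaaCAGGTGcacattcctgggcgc
Acta1: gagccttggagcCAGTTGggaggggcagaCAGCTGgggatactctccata
Des: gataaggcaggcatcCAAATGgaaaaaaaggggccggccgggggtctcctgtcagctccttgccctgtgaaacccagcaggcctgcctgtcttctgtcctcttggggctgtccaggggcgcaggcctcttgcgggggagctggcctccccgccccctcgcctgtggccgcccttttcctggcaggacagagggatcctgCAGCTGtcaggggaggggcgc
Tpm2: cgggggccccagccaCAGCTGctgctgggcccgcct
Ttn: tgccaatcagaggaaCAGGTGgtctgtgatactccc
Mybpc1: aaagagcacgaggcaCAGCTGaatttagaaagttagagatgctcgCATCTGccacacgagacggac
Klhl40: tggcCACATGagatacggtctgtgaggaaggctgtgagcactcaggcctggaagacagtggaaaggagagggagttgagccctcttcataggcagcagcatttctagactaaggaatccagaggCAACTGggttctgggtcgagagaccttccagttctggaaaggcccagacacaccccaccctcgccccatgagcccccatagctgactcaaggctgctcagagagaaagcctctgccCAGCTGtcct
Hes6: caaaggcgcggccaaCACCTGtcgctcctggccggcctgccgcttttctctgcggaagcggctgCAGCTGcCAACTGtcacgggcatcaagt

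Chrna1 and Chrnb1 encode the alpha and beta subunits of the muscle acetylcholine receptor. Acta1 is skeletal alpha-actin, Des is desmin, Tpm2 is beta-tropomyosin, Ttn is titin, Mybpc1 is slow myosin-binding protein C, and Klhl40 is a Kelch protein that stabilizes thin filament proteins. Hes6, a Hes family member that promotes myogenic differentiation, held 3 E-boxes within 235 bases of the start shown, both preferred forms among them. The upstream bases of another listed Hes6 start in the same region held CAGCTG as their only E-box. A CAGCTG was present in the stretches of Chrna1, Acta1, Des, Tpm2, Mybpc1, Klhl40 and Hes6. The Ttn and Chrnb1 stretches held CAGGTG and no CAGCTG. Not every contractile gene with its window inside a region held a preferred form. Those of Smyd1, a methyltransferase of sarcomere assembly, held no E-box, and those of Synpo2l, an actin-associated Z-disc protein, held CAGTTG and CATGTG only.

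E-boxes of the preferred forms were common in promoters covered by these regions. Any CANNTG occurred in 104 of the 114 covered windows (91.2%), against 72.3% of all 32851 windows of the same length. CAGCTG, its own reverse complement, occurred in 63 covered windows (55.3%) and in 16.3% of all windows. CACCTG or its reverse complement CAGGTG occurred in 43 (37.7%) and in 20.2%. At least 1 of these 2 preferred forms was found in 91 covered windows (79.8%), against 32.9% of all windows. At least 2 CAGCTG sites were found in 13.2% of covered windows and in 1.9% of all windows. Every one of these forms is also counted among CANNTG. With only the window nearest the centre of each region kept, so that no region counted more than once, CAGCTG was found in 57 of 94 (60.6%).

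Of the other forms, 2 were compared with all windows. CATCTG or CAGATG was found in 14 covered windows (12.3%), against 17.2% of all, and CATATG in 2 (1.75%), against 3.91%. Covered windows were richer in G and C, with a median of 59.8% against 52.7%. Within 4 bands of roughly equal size in GC content, set on all windows, the share with CAGCTG was 20% against 10.9% in the lowest (5 covered windows), 25% against 18.1% in the next (20), 52.5% against 20.2% in the third (40) and 73.5% against 15.6% in the highest (49). The share with any CANNTG was 100%, 70.0%, 92.5% and 98.0% of covered windows from the lowest to the highest band, against 78.9%, 79.7%, 73.7% and 57.5% of all windows, so in the second band it was lower in covered windows. The share with CACCTG or CAGGTG was 60.0%, 25%, 42.5% and 36.7% of covered windows from the lowest to the highest band, against 13.8%, 22.3%, 24.3% and 20.2% of all windows. These shares describe letters in a window, were searched on both strands, and carry no test. The part of base composition in them was not tested.

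**Figure D1:**
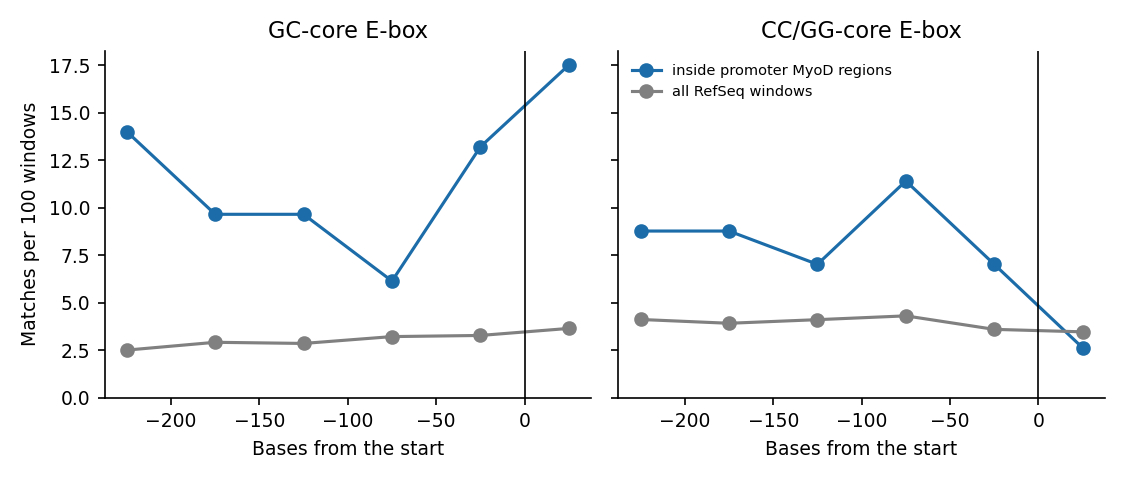
Matches per 100 windows of the GC-core E-box (left) and the CC/GG-core E-box (right) in 50-base bins from 250 bases before to 50 bases after RefSeq starts, for the 114 windows inside promoter MyoD regions (blue) and all 32851 windows (gray). The GC-core form lay above all windows in every bin, with 17.5 matches per 100 windows in the 50 bases after the start against 3.65, and the CC/GG-core form was highest between 100 and 50 bases before the start, at 11.4 against 4.31. In the 50 bases after the start the CC/GG-core form was below all windows, at 2.63 against 3.47.

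The positions of the regions were next set against RefSeq starts, as a description only, since the rule already required a promoter annotation. The RefSeq window table held the named gene for 302 regions. For 184 of the 451 it held a start of that gene within 3 kb, and the start lay inside the region in 92 of them. The region's centre was upstream of the start in 78 and downstream in 106, with a median of 65.5 bp downstream, and it lay within 250 bp of the start in 75. For another 44 regions the nearest listed start within 3 kb belonged to a different gene from the one named in the files, and in 15 of these it lay inside the region. The table held no start within 3 kb of the other 223 regions, and it is not complete. For 84 of these 223, the RefSeq gene table placed an end of the named gene within 3 kb.

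**Figure D2:**
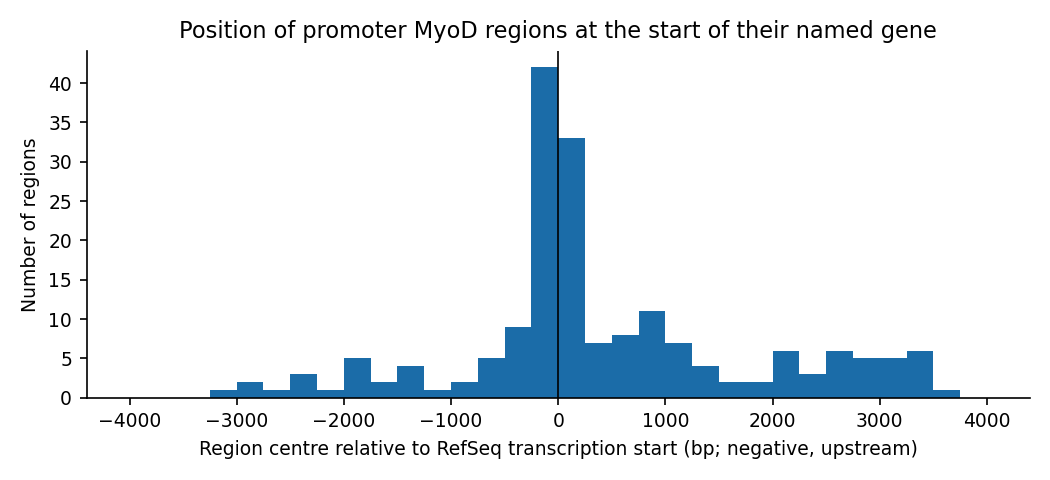
Number of regions by the distance of their centre from the RefSeq start of the named gene, in 250-bp bins (negative, upstream), for the 184 regions with such a start within 3 kb. The 75 regions whose centre lay within 250 bp of the start form the central peak, and every bin farther out holds fewer regions than either central bin.

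The leading promoter regions were then ranked by the mean within-list percentile of their scores, among the 257 with a peak in all 3 ASC MyoD libraries. Arhgef2, a guanine nucleotide exchange factor that binds microtubules, led (ENSMUSG00000028059, chr3:88629601-88630883). Its scores were 646, 533 and 755 in replicates 1, 2 and 3, a mean of 645 ± 111 (SD, n = 3). Rhobtb1 followed (ENSMUSG00000019944, chr10:69207714-69209065) with 682, 483 and 449, a mean of 538 ± 126. The RefSeq start of Rhobtb1 lay inside its region, while the nearest start of Arhgef2 lay 128 bp outside.

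The third region carried the name Galnt2l (ENSMUSG00000092329, chr8:122850294-122852459) and scored 370, 354 and 548. The nearest RefSeq start was that of Cdh15, 1920 bp away, the gene of M-cadherin, a cell adhesion protein of MuSCs. Plec, which encodes the cytolinker plectin (chr15:76206431-76207793), scored 301, 257 and 285, a mean of 281 ± 22.4, and its replicates were close together. Adgre5, the adhesion receptor CD97 (chr8:83739520-83740672), scored 389, 399 and 175, so replicate 3 stood well below the others.

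Mamstr (chr7:45639162-45640262) scored 292, 270 and 201, and Klhl31, a Kelch protein of skeletal muscle (chr9:77636999-77638134), scored 278, 226 and 239. Dmpk, the kinase gene whose repeat is expanded in myotonic dystrophy (chr7:19083963-19085099), scored 266, 268 and 168. Mical2, an actin-oxidizing enzyme, scored 302, 246 and 171 at a site annotated between 2 and 3 kb. The remaining leaders, 2900026A02Rik, Gm15991 and Mir1969, had mean scores of 233 ± 18.3, 244 ± 63.1 and 279 ± 121. Over the 12 regions and 3 libraries the lowest score was 167.6, at Dmpk in replicate 3.

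**Figure D3:**
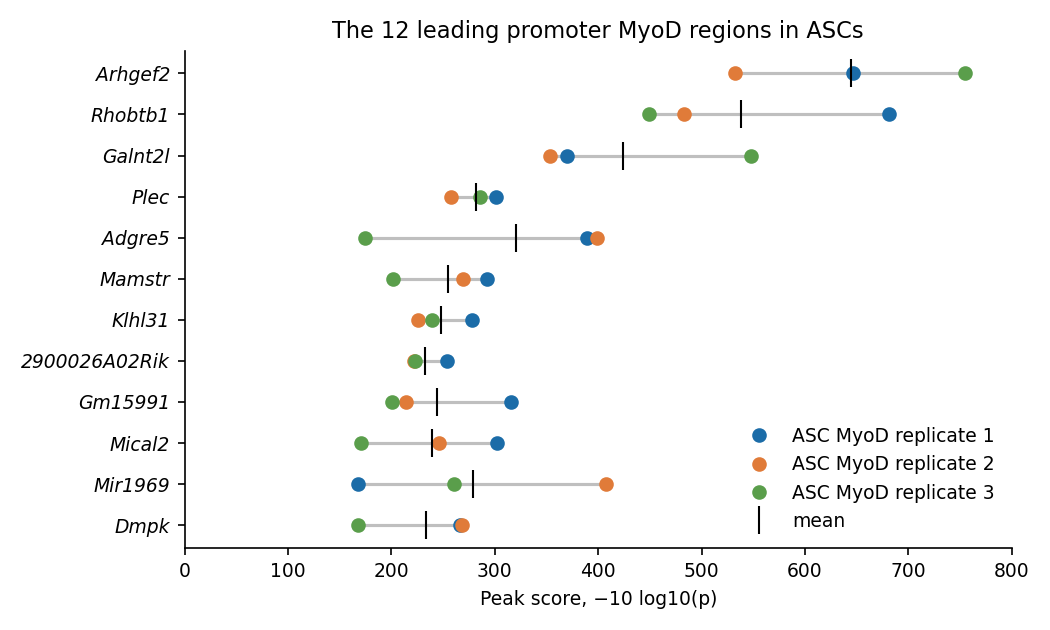
Peak score (negative log10 p-value, multiplied by 10) of the 12 leading promoter regions in each of the 3 ASC MyoD replicates (points) with their mean (black tick). Arhgef2 and Rhobtb1 had means of 645 and 538, and the lowest value plotted was 167.6.

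In the band between 1 and 2 kb, the regions of Galnt2l, 2900026A02Rik and Lix1 ranked highest, the last with scores of 278, 185 and 200. In the band between 2 and 3 kb, those of Mical2, Mir1969 and Traf4, a signaling adaptor, ranked highest, and Traf4 scored 212, 270 and 180. The median of the mean scores was 81.4 within 1 kb, 88.0 between 1 and 2 kb and 80.4 between 2 and 3 kb.

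Most promoter regions scored far below the leaders. Over all 451, 24 had a mean score of at least 200, 114 lay between 100 and 200, and 313 lay below 100. Regions in all 3 libraries had a median mean score of 98.5 and those in only 2 libraries a median of 69.6. At the lower end, Gm16751 scored 50.6 and 51.2, Cnnm4 50.4 and 52.2, and Dusp22 50.8 and 52.4, each in 2 libraries. Of the regions left outside, 465 promoter regions had peaks in 1 library only, with a median score of 59.0 and a maximum of 132 at 1700013G24Rik. At the 3 kb limit, 16 of the 451 regions also held a peak annotated to another class, and 5 regions with a promoter peak were left out because their highest peak was annotated otherwise. The strongest of these 5 lay at Lmnb2, the gene of lamin B2 (chr10:80913626-80914958), with a highest score of 588 on a peak annotated to intron 1.

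A peak in all 3 ASC MyoD libraries was found for 257 promoter regions (57.0%, 95% Wilson interval 52.4% to 61.5%), beside 55.8% of all consensus regions and 55.4% of the other classes. The rule used these libraries, so no test was made. Of the 194 regions in 2 libraries, 37 lacked a peak in replicate 1, 79 in replicate 2 and 78 in replicate 3. Replicate 1 had the longest list, with 2652 peaks against 2262 and 2296, and the highest score in 125 of the 257 regions, against 69 and 63. The highest score was at least 2 times the lowest in 53 of the 257, and the median coefficient of variation was 23.5%. Over these 257 regions, the Spearman correlation of scores between libraries was 0.611 (1 and 2), 0.496 (1 and 3) and 0.635 (2 and 3), a description across regions that share their libraries.

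Scores and widths come from the libraries that chose the regions, so they are given as a description with no test. The median score of promoter regions was 86.2, 82.5 and 79.99 in replicates 1, 2 and 3, and that of the other classes 88.1, 81.7 and 78.9. The differences of log2 medians were -0.03, 0.01 and 0.02, with a mean of 0.00080. Median widths of promoter peaks were 925, 867 and 854 bp against 890, 836 and 803 bp in the other classes, differences of 35, 31 and 51 bp with a mean of 39 bp. With only peaks scoring at least 80, the mean difference in width was 17.8 bp. Scores move with sequencing depth, which peak lists do not show.

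Merged promoter regions spanned 504 to 3071 bp, with a median of 1011 bp. The widest were those of Iffo1 at 3071 bp, Sync at 2823 bp, Mrgpre at 2185 bp and, both named Galnt2l, 2166 and 2014 bp. Sync encodes syncoilin, an intermediate filament protein of muscle, and Iffo1 an intermediate filament family member. The Sync region (chr4:129285731-129288553) joined 4 peaks and scored 125, 127 and 174.

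None of the 451 promoter regions overlapped a peak of the 3 QSC MyoD lists, which held 139 to 174 peaks each. Over all 1985 consensus regions, 99.5% had no QSC MyoD peak, so promoters shared this with the rest of the set. Beyond the regions themselves, a QSC MyoD peak was assigned anywhere to 3 of the 362 protein-coding genes with a promoter region (0.829%), beside 1.02% of all protein-coding genes in RefSeq. Because the ASC lists are far longer than the QSC lists, and reads were not analysed here, the part of depth and of antibody yield in this count was not tested.

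MyoG peaks of ASCs overlapped 12 promoter regions (2.66%, 95% Wilson interval 1.53% to 4.59%), against 3.73% of all consensus MyoD regions. They lay at Rhobtb1, Mogat1, Stam, Cdk2ap1, Iba57, Exosc9, Rbm24, Vstm4, Krtap16-1, Zmym4, Asb5 and Vgll4. Each had its MyoG peak in a single library, 1 region in replicate 1, 4 in replicate 2 and 7 in replicate 3. The highest MyoG score was 78.7 at Rhobtb1 in replicate 2, followed by 73.1 at Exosc9, an RNA exosome subunit, and 70.9 at Iba57, an iron-sulfur cluster assembly factor, both in replicate 3.

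At the lower end, the MyoG scores were 50.0 at Stam, 50.7 at Zmym4 and 51.2 at Krtap16-1, near the lowest listed value. The remaining values were 51.8 at Mogat1, 53.9 at Cdk2ap1, 55.2 at Rbm24, 55.6 at Asb5, 57.6 at Vgll4 and 66.6 at Vstm4. Rbm24, an RNA-binding splicing regulator of muscle, had MyoD scores of 134, 122.6 and 92.7 and its RefSeq start inside the region. Asb5 encodes an ankyrin repeat protein of muscle with a role in ubiquitination, and Vgll4 a cofactor of TEAD factors. In QSCs, the only promoter region with a MyoG peak was that of Map2k2, a kinase of the MAPK cascade, with a score of 53.6 in replicate 1.

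The share of promoter regions with a MyoG peak was 0.222%, 0.887% and 1.55% in the 3 ASC libraries and 0.222%, 0% and 0% in the 3 QSC libraries. The means were 0.887% ± 0.665 and 0.0739% ± 0.128 (SD, n = 3), and replicate 1 was at the same value in both groups. The difference of 0.813 percentage points had a two-sided exact permutation p of 0.2 (adjusted 0.333 over 4 tests), where 3 libraries against 3 can reach no less than 0.1. The ASC MyoG lists held 916, 605 and 639 peaks and the QSC MyoG lists 120, 162 and 167. The part of list length in the difference was not tested, and the regions themselves were chosen in ASCs. With only peaks scoring at least 80, both groups were at 0 and the difference was 0. The other MyoD regions had ASC MyoG peaks in 1.89%, 1.63% and 1.56% of cases, so promoters were lower by 0.808 points on average (two-sided exact sign-flip p = 0.25, adjusted 0.333, the smallest possible). In replicate 3 the difference was -0.0124 points. Without ASC MyoG replicate 3, the excess in ASCs over QSCs was 0.480 points. The difference between promoters and other regions was -0.378 points without ASC MyoG replicate 1 and -1.32 points without ASC MyoD replicate 1. At any distance, ASC MyoG peaks were assigned to 30 of the 362 protein-coding genes with a promoter region (8.29%), beside 3.36% of all protein-coding genes.

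**Figure D4:**
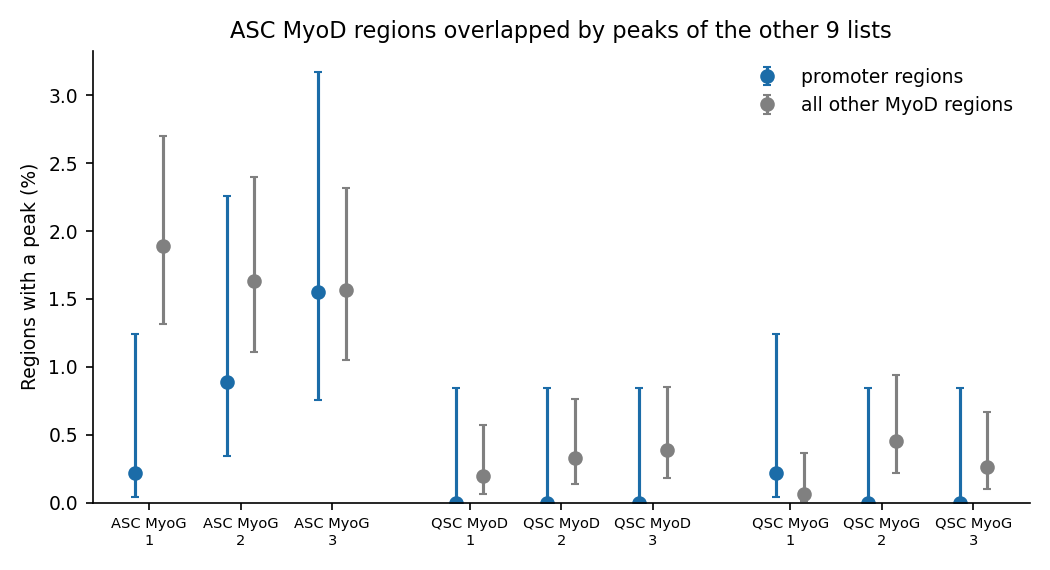
Percent of ASC MyoD regions overlapped by a peak in each of the other 9 ChIP libraries, for the 451 promoter regions (blue) and the 1534 regions of all other classes (gray), with 95% Wilson intervals that cover the counting of regions only. Promoter regions reached 0.222% to 1.55% in the ASC MyoG libraries and 0% in every QSC MyoD library.

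The regions were then grouped by the known roles of their genes. Of 21900 protein-coding genes in RefSeq, 362 (1.65%) carried the name of a promoter region, and each gene list is read beside that share. The highest shares were 9 of 38 excitation-contraction and calcium genes (23.7%), 14 of 78 sarcomere and contractile genes (17.9%), 3 of 18 neuromuscular junction genes (16.7%), 3 of 24 dystrophin complex genes (12.5%) and 4 of 32 myoblast adhesion and fusion genes (12.5%). Muscle transcription factors reached 5 of 52 (9.62%), early response factors 3 of 31 (9.68%) and lamin and nuclear envelope genes 4 of 44 (9.09%). Between these and the share of all genes lay cell cycle genes with 4 of 59 (6.78%), chromatin modifiers with 9 of 175 (5.14%), Notch and Wnt genes with 2 of 59 (3.39%), growth factor pathway genes with 2 of 68 (2.94%) and extracellular matrix and adhesion receptor genes with 5 of 173 (2.89%). RNA processing and translation genes were near the share of all genes with 5 of 302 (1.66%). Ubiquitin and proteasome genes (4 of 424, 0.943%), Zfp zinc-finger genes (2 of 397, 0.504%) and mitochondrial protein genes (1 of 369, 0.271%) were below it.

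**Figure D5:**
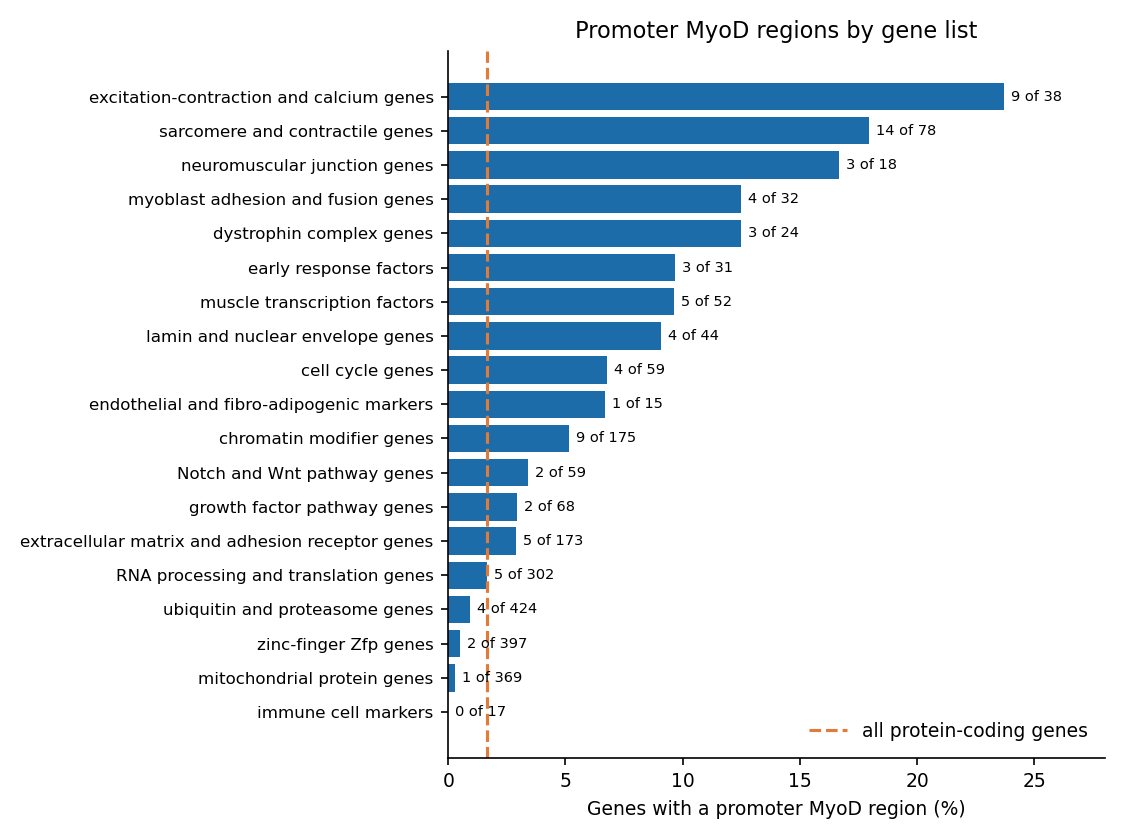
Percent of the genes of each list that carried the name of a promoter MyoD region, with the count beside each bar, and the share of all protein-coding genes in RefSeq (dashed line, 1.65%). Excitation-contraction, sarcomere and neuromuscular junction genes had the highest shares, at 23.7%, 17.9% and 16.7%.

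Among the transcription factors, Mef2c (chr13:83503660-83504689) scored 130, 126 and 79.5 and Mef2a (chr7:67372941-67374051) scored 118, 111 and 90.9. Both are MADS-box factors that act with MyoD at muscle genes. Id2, which encodes an inhibitor that takes E proteins away from MyoD, scored 95.01, 81.6 and 91.1 at a site between 2 and 3 kb from its start (chr12:25098356-25099328). Tead1, a factor of MCAT elements, scored 128, 95.8 and 57.5, and had 4 further MyoD regions outside promoters. Myog (chr1:134289444-134290235) was the weakest of the 5, with 50.7 and 54.2 in replicates 1 and 3 and no peak in replicate 2. RefSeq also placed the start of Myoparr, an RNA transcribed from the Myog promoter, inside that region.

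The calcium-handling and excitation-contraction genes were led by Ryr1, the calcium release channel of the sarcoplasmic reticulum (chr7:29123477-29124577), with scores of 81.8, 160 and 110. Srl, which encodes the sarcoplasmic reticulum protein sarcalumenin, had 2 promoter regions, and the stronger one scored 153, 99.3 and 51.9. Stac3, an adaptor of the voltage-gated calcium channel, scored 102, 125 and 53.3, and Atp2a1, the fast-muscle calcium pump SERCA1 (chr7:126463892-126464913), scored 60.5, 92.6 and 91.7. The group also held Cacng1, Kcnn3, Jsrp1 and Camk2a, with mean scores from 55.1 to 73.4.

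Structural genes of the sarcomere had moderate scores. Klhl40 (chr9:121777067-121778244) scored 92.8, 97.1 and 93.9, close together in the 3 libraries. Des (chr1:75359857-75360704) scored 84.2 and 111 in replicates 1 and 3. Acta2, smooth muscle alpha-actin, scored 80.5, 144 and 71.4, and Mybph, a myosin-binding protein, 103, 85.0 and 75.7. The list also held Flnc, Synpo2l, Mylpf, Tpm2, Smyd1, Mybpc1, Neb, Tnnt3, Ttn and Myh1, whose mean scores ran from 53.2 at Myh1 to 90.1 at Synpo2l.

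At neuromuscular junction genes, Rapsn, which clusters acetylcholine receptors (chr2:91035080-91036175), scored 359, 191 and 156, so replicate 1 was well above the others. Chrna1 (chr2:73579269-73580942) scored 201, 212 and 106, and Dok7, an activator of the receptor kinase MuSK, scored 120, 116 and 85.0. Mymk, the fusion protein myomaker, scored 82.0 and 108 in replicates 1 and 2. The other fusion and adhesion genes were Ctnnd1 (mean 84.6 ± 14.1, n = 3), Myof (60.4 and 82.4) and Rapgef1 (69.3 and 52.4). In the dystrophin complex, Dtna scored 104 and 127, Sgcb 67.0, 75.5 and 64.2, and Sgca 111 and 50.97.

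Of the cell cycle genes, E2f2, an activator of S-phase genes, scored 125, 177 and 120, and Ccnd1, cyclin D1, scored 181, 104 and 112 at a site between 2 and 3 kb. Cdc25b, a phosphatase that promotes mitosis, scored 92.2 and 75.4, and Ccnd3, the cyclin D that rises in differentiating myoblasts, 86.0, 60.9 and 52.0. Early response genes were Nr4a3 (144 and 71.5), Klf10 (103, 88.4 and 79.9) and Atf4 (57.1 and 58.9). In the Notch list, Hes6 (chr1:91413042-91414824) scored 166, 131 and 115, and Mfng, a glycosyltransferase that modifies Notch, 72.9, 122.8 and 122.99. The growth factor list held Akt2, a kinase of insulin signaling (72.5 and 67.1), and Fgf2 (57.8 and 59.2).

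Chromatin genes were led by Smarcd3, the BAF60C subunit that recruits SWI/SNF with MyoD, at 200, 213 and 172 (chr5:24599857-24600946). Sirt2 scored 204, 143 and 83.1, Hmgn2 86.2 and 72.9, and Phf19, a Polycomb-associated factor, 130, 78.5 and 60.0. Nuclear envelope genes were Sun1 (98.1 and 79.3), Nup210 (92.5 and 71.5), Nup214 (55.7 and 62.7) and Lmna, which encodes lamins A and C (53.3 and 51.6), each in 2 libraries only. Extracellular matrix genes were led by Lama5 at 222, 154 and 164, Col26a1 at 191, 132 and 167, Col4a3 at 160, 105 and 137 and Lamb3 at 111, 130 and 148.

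Rbm24 led the RNA list, where Sf3a3 scored 59.9, 82.1 and 90.0, Dhx30 156 and 52.0, and Eif2b2 66.4, 80.7 and 53.3. In the ubiquitin list, Klhl31 was followed by Rnf121 (118, 124 and 153), Fbxw8 (96.9, 122.5 and 79.5) and Klhl40. The Zfp genes were Zfp568, with 2 promoter regions and a mean of 105 at the stronger, and Zfp3, with 87.1, 63.0 and 56.9. The single mitochondrial list gene was Ppargc1b, the coactivator PGC-1β, with 70.6 in both replicates 2 and 3.

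Markers of other cell types that a sort could hold were also counted. None of 17 immune markers and 1 of 15 endothelial and fibro-adipogenic markers carried a promoter region (0% and 6.67%), beside 1.65% of all protein-coding genes. The latter marker was Vwf, von Willebrand factor, with 119, 96.3 and 105. With MyoD regions of any class counted, the lists stood at 0 of 17 and 4 of 15 (26.7%). The share of all protein-coding genes was then 5.93%. Of 10 markers of activated MuSCs, Myog and Des had a promoter region, and Myod1, Itga7 and Megf10 had MyoD regions outside promoters only. This count went by the gene names the authors gave to regions. Cdh15, also among the 10, had none by name, though it was the nearest listed start to regions named Galnt2l. Peaks are not expression, so the labelled cell type was not checked by this.

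Some regions lay at the starts of muscle genes other than the one named in the files, a point noticed after the values were seen. The 5 regions named Galnt2l spread over 3.85 Mb of chromosome 8. One of them (chr8:123894687-123896700; scores 136, 86.8 and 68.4) contained the RefSeq start of Acta1, and 2 had Cdh15 as the nearest listed start, the second of them 533 bp away (chr8:122848907-122849963; scores 85.9, 58.2 and 53.0). The region named Fgf11 (chr11:69795112-69796503) contained the start of Chrnb1 and scored 73.8, 73.8 and 60.7. The regions named Gm10804 and Gm15932 contained the starts of Cd82, a tetraspanin of MuSCs, and Fitm1, a lipid droplet protein of muscle, with mean scores of 169 ± 34.0 and 110 ± 27.1 (SD, n = 3). When genes with a RefSeq start inside a region were added to the named ones, 4 list genes were gained, Acta1, Chrnb1, Srsf2 and Fars2. The sarcomere list then stood at 15 of 78 (19.2%) and the neuromuscular list at 4 of 18 (22.2%), beside 1.73% of all protein-coding genes.

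Several genes carried more than 1 promoter region. Besides Galnt2l with 5, these were Stard13, Srl, Asb5, Iffo1, Eno1 and Zfp568 with 2 each. Eno1, the glycolytic enzyme alpha-enolase, had regions 1 to 2 kb from a start (chr4:150234341-150235464; 105, 126 and 101) and within 1 kb of another (chr4:150245552-150246586; 125, 70.1 and 146). The 2 Asb5 regions scored 89.1 and 62.3, and 70.0 and 55.5, each in 2 libraries. Of the 362 protein-coding genes with a promoter region, 73 (20.2%) also had a consensus MyoD region outside promoters, beside 4.61% of all protein-coding genes.

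The promoter regions named for miRNA genes or their host transcripts were chosen after their values were seen. Mir206, which encodes a miRNA of skeletal muscle, had a region ending upstream of its hairpin (chr1:20677643-20678371) with scores of 132, 110 and 65.1, and 2 MyoD regions outside promoters. The host transcript Mir133a-1hg, of another muscle miRNA, scored 198, 238 and 144. Mir1969 scored 168, 408 and 260, Mir7212 58.1 and 86.1, and Mir138-2 72.2 and 56.7. The Mir1969 region (chr8:70927690-70928833) lay downstream of the miRNA. The mature sequences given by RefSeq (GRCm38.p6) are shown to identify the products, with the seed, bases 2 to 8, in capitals. They are encoded on the plus strand at chr1:20679055-20679076 (miR-206-3p), chr8:94324312-94324334 (miR-138-5p) and chr8:70925541-70925563 (miR-1969).
miR-206-3p: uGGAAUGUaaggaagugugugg
miR-138-5p: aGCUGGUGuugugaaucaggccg
miR-1969: aAGAUGGAgacuuuaacaugggu

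No seed was shared among these 3 miRNAs. Their levels were not measured in these libraries.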

How the data were processed

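ChIP-seq peak lists for MyoD and MyoG from 6 QSC and 6 ASC libraries were analysed, and the 2 input samples were not analysed here. Per the submitters' processing notes, the tools were BWA 0.7.5, MACS and deepTools 3.5.0 with build mm10; the annotation tool and the use of input are not given in the sources used here. Peaks were listed per library. The deposited score is the negative log10 p-value of the authors' peak caller, multiplied by 10. The deposited start and end positions (bp) were used as given. Peak lists carry no reads, so depth is unknown and no interval for it is given; a deeper library can list more peaks. Wilson intervals (95%) cover the counting of regions only. The study describes its replicates as biological, while the labels do not say whether each came from separate animals, so p-values measure only the spread between these samples.

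Peaks overlapping by at least 1 bp were merged, and a peak in at least 2 of 3 ASC MyoD libraries was required. Overlap with other lists needed 1 bp. Libraries were the units of exact two-sided permutation (ASC against QSC) and sign-flip (promoter against other regions) tests, adjusted over 4 tests by Benjamini-Hochberg, of which those on scores and widths are not reported because the rule used their libraries; a threshold of 0.05 could not be reached. The members and the 20 gene lists were chosen with earlier results of these data known. Named regions were the 12 of highest rank in 3 libraries, those with peaks in the other 9 lists, up to 4 genes per gene list, the top 3 per outer distance band, genes with at least 2 regions, the lowest 3, regions at the limits and the 5 widest. Python 3.11.15, numpy, pandas and scipy were used, and merging was tested on simulated lists. The region of 1 further gene of the excitation-contraction list, and 1 of the gene lists, are not reported here.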

Additional observations from a re-analysis of the deposited data

How the results depend on the processing

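The count of promoter regions was 451 as reported, 197 with peaks scoring at least 80, 257 with a peak required in all 3 ASC MyoD libraries, 916 with 1 library sufficient and 271 within 1 kb of a start. Without ASC MyoD replicate 1, 2 or 3 it was 293, 336 and 336. Libraries of the other groups do not enter this count. The promoter share of MyoD regions was 22.7%, and 13.7% within 1 kb. The share of promoter regions in all 3 libraries was 57.0%, and 28.1% with 1 library sufficient. The difference in MyoG share between ASCs and QSCs was 0.813 points as reported and 0.0 at a score of at least 80, where no promoter region had a MyoG peak. With single libraries left out it ran from 0.480 (without ASC MyoG replicate 3) to 1.15. The difference between promoters and other regions in ASC MyoG share was -0.808 points as reported, -1.34 with all 3 ASC MyoD libraries required, -0.512 with 1 sufficient, and with single libraries left out from -1.32 (without ASC MyoD replicate 1) to -0.378 (without ASC MyoG replicate 1). The log2 difference of median scores between promoters and other regions was 0.00080 and turned to -0.0196 at a score of at least 80 and -0.0182 within 1 kb. With single libraries left out it ran from -0.00822 to 0.0440. The other 146 of 157 values over the 8 results kept their direction, and counts stayed within 1.5 times. Many of these could not change, because the library left out does not enter the result. The direction of the log2 difference of 0.00080 has little meaning, since the replicates differed in sign. The width difference of 39 bp was 17.8 bp at a score of at least 80, and ran from 37.5 to 42.5 bp with single libraries left out. No p-value of the MyoG comparisons fell below 0.1, and none could. The smallest possible value is 0.1 for the permutation test and 0.25 for the sign-flip test. The alternatives with a gap of 500 bp, 50% reciprocal overlap, the most frequent annotation and chromosomes 1 to 19 and X reversed no result. The last of these returned every value as reported. For the replicate block, the MyoG difference within replicate numbers was 0.813 points (exact sign-flip p = 0.5). Same-numbered ASC and QSC MyoG libraries had correlations of 0.0145, 0.000303 and 0.00418 in their deviations over 2198 merged regions, none above the 0.1 set for pairing. The lists are sparse, and the labels do not say whether same-numbered libraries share animals. Leaving out an ASC MyoD library or requiring all 3 gives no share in all 3 libraries, so these were not run for it. Depth limits all counts, since reads were not analysed here.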

Other observations

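Of the other motifs searched in the 114 covered promoter windows, chosen after the E-box values were seen, the AP-1 form TGANTCA was found in 7.89% against 7.81% of all windows. The GC box GGGCGG was found in 47.4% against 35.7%, and the MCAT form CATTCC, known as a binding form of TEAD factors, in 19.3% against 14.7%. Both strands were searched, and no test was made.

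Among promoter regions found in a single ASC MyoD library, the highest scores after 1700013G24Rik were 127 at Tmem201, 122 at Platr16, 111 at Man2a1 and 106 at Dbh. Tmem201 also had a promoter region among the 451, with scores of 51.5 and 52.0 in replicates 1 and 3. The regions left out at the 3 kb limit, besides Lmnb2, were Cerox1, Mir298, Jag2 and Gm14215, with highest scores of 299, 179, 197 and 144, each with peaks in 3 libraries. Jag2 encodes a Notch ligand, and its highest peak was annotated to exon 6.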
